A study of Mus musculus with 6 samples.

Results

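The genes described here encode the structural proteins of the extracellular matrix of the mouse testis, namely the collagens, the laminins, the fibrillins, elastin, fibronectin, the nidogens and perlecan. Members were taken by name, as protein-coding genes whose symbol begins with Col, Lama, Lamb, Lamc or Fbn followed by a digit, together with Fn1, Eln, Nid1, Nid2 and Hspg2. The rule matched 62 of the 26743 genes of the deposited count table. Among them Col4a3bp encodes a ceramide transporter and matched only by its symbol (log2 fold change 0.15, standard error 0.06, edgeR adjusted p = 0.0991), so 61 matrix genes remained. Of these, 59 had enough reads to be tested. The other 2 were Col19a1, counted 9, 7 and 11 times in WT and 4, 7 and 0 times in Trf2-/- mice, and Col10a1, with at most 2 counts in a mouse.

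RNA-seq of ribosomal RNA-depleted total RNA was performed on whole testes of 3 wild type (WT) and 3 Trf2-/- mice, all at post-natal day 21, when the first wave of spermatogenesis forms haploid round spermatids. Trf2 is a Tbp-related transcription factor that is abundant in male germ cells, and the comparison asks how RNA levels differ when it is absent. The study's methods name a 129/SvPas background where they describe a tagged Trf2 line, without saying whether it covers these 6 mice, and nothing in them says whether mice with the same number were littermates. Each WT mouse gave 21582123 to 29859347 counted reads and each Trf2-/- mouse 15187062 to 24530489, so that 3 counts corresponded to 0.105 to 0.190 CPM (counts normalised to the library size with TMM factors), a limit that covers counting error only. The inactivated gene, listed as Tbpl1, fell from 295 to 61.0 CPM (log2 fold change -2.27, standard error 0.06, edgeR adjusted p = 1.18e-06). Markers of Sertoli, Leydig, peritubular myoid and endothelial cells, of fibroblasts and macrophages and of germ cells were detected in the testes of both genotypes, though not every round spermatid marker was. In Trf2-/- mice 1 to 3, Acrv1 had 1, 3 and 0 counts, Catsper4 2, 2 and 0, and Sun5 0, 1 and 0. Catsper3 had 5, 5 and 0. Other round spermatid markers stayed well above this, such as Acr with 845, 843 and 370 counts. Since whole testis was used, fewer cells of a type and less RNA per cell cannot be told apart.

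Collagens are trimers of alpha chains that form fibrils, beaded filaments or networks, according to the type. In the testis a basement membrane of collagen IV, laminin trimers of alpha, beta and gamma chains, nidogens and perlecan surrounds each seminiferous tubule and is laid down by Sertoli and peritubular myoid cells. Fibrillar collagens, collagen VI and microfibrils of fibrillin lie outside it, in the tubule wall, the interstitium and the capsule. Fibrillins form the microfibrils on which elastin is deposited and which bind latent TGF-beta complexes and BMPs.

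Compared with WT testes, 5 of the 59 tested matrix genes were down-regulated and 21 were up-regulated with an adjusted p below 0.05 (quasi-likelihood test of edgeR, Benjamini-Hochberg adjustment over all tested genes). The down-regulated share was 8.47%, where 20.2% of all 16924 tested genes were down-regulated. The up-regulated share was 35.6%, where the share of all tested genes was 11.2%. With library size in place of TMM factors, 25.2% of all genes were called higher and 15.9% lower, and the matrix genes then split into 28 higher and 4 lower. Changes were small. Only Col2a1 and Col9a1 passed a 2-fold decrease (3.39% of the matrix genes, against 4.3% of all genes), and no matrix gene passed a 2-fold increase (0.609% of all genes). Col6a5 alone did so at an unadjusted p below 0.05, and none did by DESeq2's Wald test. The log2 fold change was above 0 for 50 of the 59 genes and had a median of 0.25, compared with 0.04 for all genes. The 3 Trf2-/- mice lay wholly below the 3 WT mice for 8 matrix genes and wholly above them for 24, shares of 13.6% and 40.7%, where the shares of all genes were 26.8% and 22.3%. The plot of fold changes by group shows 3 genes, Fbn2, Col2a1 and Col9a1, furthest to the left. Lamb3 comes next, with a wide standard error, and did not pass the test (log2 fold change -0.70, standard error 0.30, edgeR adjusted p = 0.112).

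**Figure D1:**
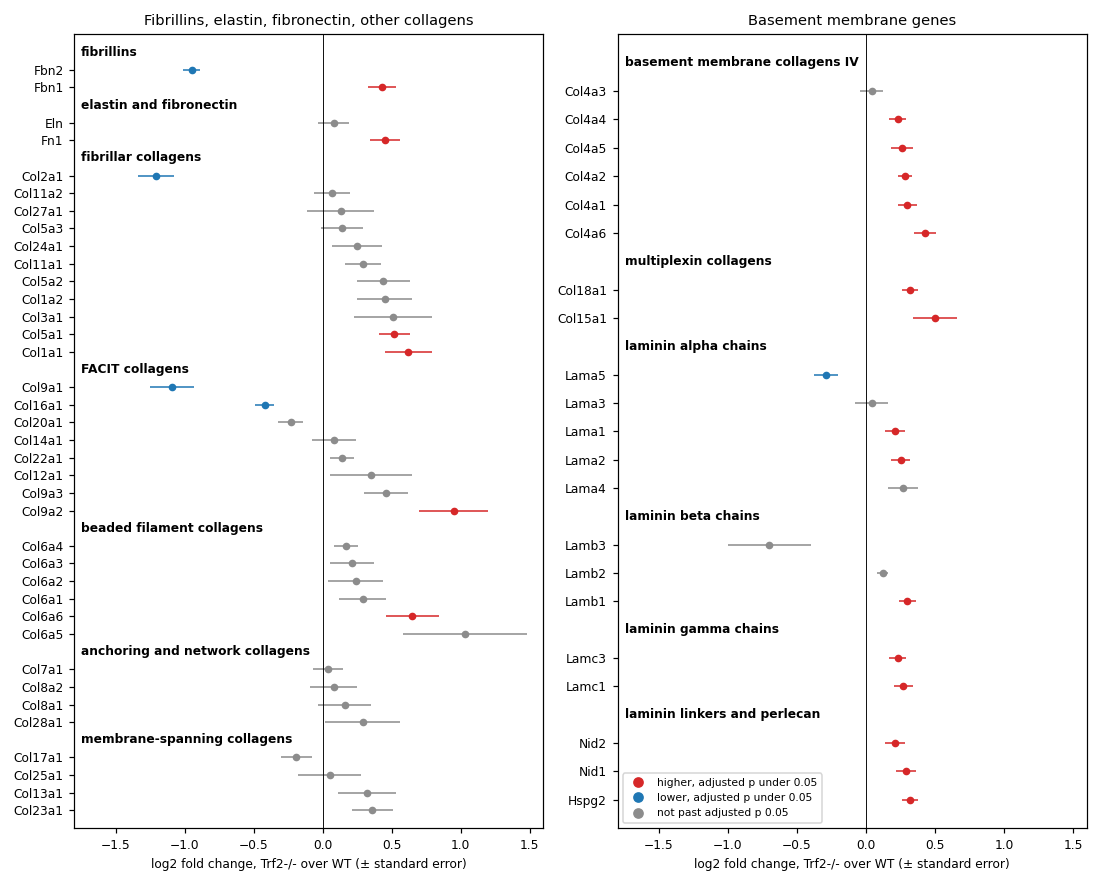
Log2 fold change of the tested matrix genes, in Trf2-/- over WT testes (points, with the standard error as bars), ordered by role, with genes past an adjusted p of 0.05 in colour. The 5 lower genes are Fbn2, Col2a1, Col9a1, Col16a1 and Lama5, and 15 of the 21 higher genes belong to the basement membrane panel.

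Fbn2 had the most reads of the 5 lowered genes. It encodes fibrillin-2, the fibrillin most associated with development, and lies on the minus strand at chr18:58168277-58369580 (NCBIM37). It had 6277, 5400 and 4153 counts in WT mice 1 to 3 and 2658, 2687 and 1631 in Trf2-/- mice 1 to 3. After normalisation these were 219, 207 and 199 CPM in WT and 105, 115 and 103 CPM in Trf2-/- testes. All 3 Trf2-/- mice were well below all 3 WT mice, and the mice of a genotype were close to each other. The mean fell from 208 ± 9.82 CPM (SD, n = 3) to 108 ± 6.43 CPM (SD, n = 3), or 51.8% of the WT level (log2 fold change -0.95, standard error 0.06, edgeR adjusted p = 0.00015). The 14 settings in which it was computed gave log2 fold changes of -1.01 to -0.85, and it passed the test at an adjusted p of 0.05 in each.

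Fbn1, which encodes fibrillin-1, the principal fibrillin of adult tissues, moved in the other direction. The gene lies at chr2:125126330-125333729 and was measured at 69.9, 72.6 and 89.9 CPM in WT and at 114, 96.0 and 103 CPM in Trf2-/- mice. The lowest Trf2-/- mouse was above the highest WT mouse, by a margin smaller than the spread of the WT mice. Its mean rose from 77.5 ± 10.9 to 104 ± 8.95 CPM (SD, n = 3 each; log2 fold change 0.43, standard error 0.10, edgeR adjusted p = 0.0113). The ratio of Fbn2 to Fbn1 counts was 3.13, 2.85 and 2.22 in WT and 0.927, 1.20 and 0.999 in Trf2-/- testes, and did not overlap. The log2 ratio differed by -1.38 between the genotypes (2-sided exact permutation test, p = 0.1, the smallest that 3 mice against 3 allow). The ratio was chosen with earlier results of these data known, so this p-value is not independent support for the change of Fbn2. Per kilobase of gene length, Fbn2 made up 75.5% ± 3.35 of the fibrillin level in WT and 54.3% ± 3.29 in Trf2-/- testes (SD, n = 3 each). Without WT mouse 1 the change of Fbn1 was 0.36 (edgeR adjusted p = 0.0519), and without WT mouse 2 it was 0.39 (edgeR adjusted p = 0.0545).

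Eln, the core protein of elastic fibres, was at 41.2, 41.7 and 49.1 CPM in WT and 39.2, 52.6 and 47.7 CPM in Trf2-/- mice, which overlapped (log2 fold change 0.08, standard error 0.11, edgeR adjusted p = 0.605). Fn1, the cell-binding glycoprotein fibronectin, was at 63.2, 66.3 and 80.2 CPM in WT and 98.6, 83.4 and 105 CPM in Trf2-/- mice, which did not. Fn1 rose by a log2 fold change of 0.45 (standard error 0.11, edgeR adjusted p = 0.012). Its adjusted p was 0.0554 without WT mouse 1 and 0.0553 without WT mouse 2 in the same test.

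**Figure D2:**
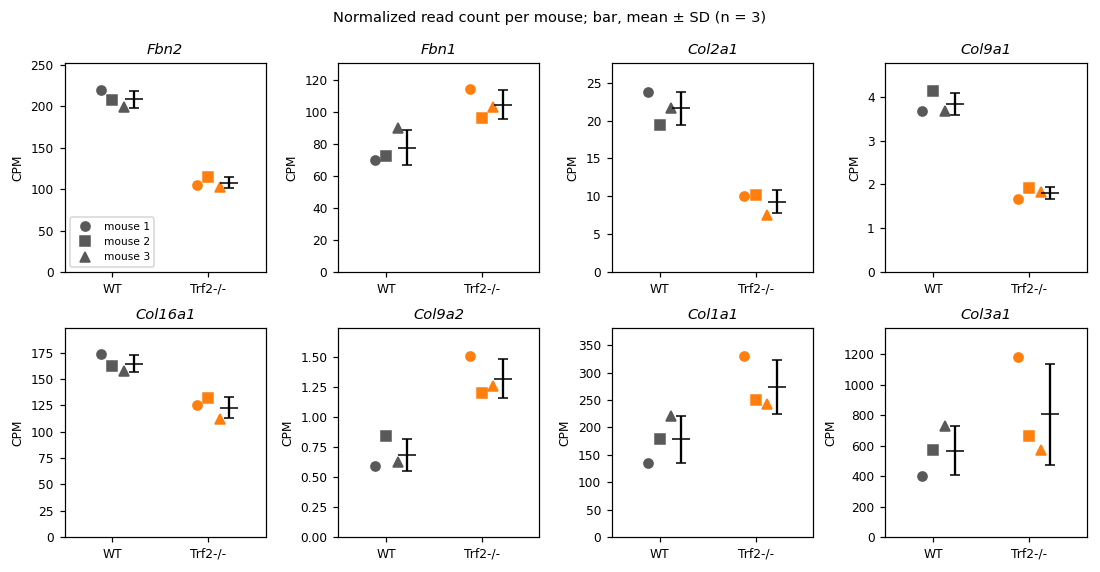
Normalised read count (CPM, linear axis from 0) of 8 matrix genes in each mouse, with the mean and SD of each genotype (n = 3) as a bar and the mouse number as the symbol. Fbn2, Col2a1, Col9a1 and Col16a1 are lower in every Trf2-/- mouse, whereas the Col3a1 values of the genotypes overlap and WT mouse 1 and Trf2-/- mouse 1 are its extremes.

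The other 3 genes whose decrease passed the test in each of the 14 settings were collagens of cartilage type or of fibril surfaces. Col2a1, the fibril-forming collagen of cartilage (chr15:97806033-97835155), had 682, 507 and 452 counts in WT and 254, 237 and 119 counts in Trf2-/- mice. At 23.8, 19.4 and 21.7 CPM against 10.1, 10.2 and 7.52 CPM the genotypes were far apart, and the Trf2-/- mean was 43.2% of WT (log2 fold change -1.21, standard error 0.13, edgeR adjusted p = 0.000504). Col9a1, a FACIT collagen (fibril-associated collagen with interrupted triple helices) that coats collagen II fibrils, was less abundant, with 106, 108 and 77 counts in WT and 42, 45 and 29 in Trf2-/- mice. Its levels were 3.69, 4.14 and 3.69 CPM in WT and 1.67, 1.93 and 1.83 CPM in Trf2-/- testes. The Trf2-/- mice were again wholly below WT, at 47.1% of the WT mean (log2 fold change -1.09, standard error 0.16, edgeR adjusted p = 0.00139).

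Col16a1, a FACIT collagen that associates with both fibrillin microfibrils and thin collagen fibrils, was the most abundant FACIT gene per kilobase. The gene lies at chr4:129725084-129776527 and was measured at 174, 162 and 158 CPM in WT and 125, 132 and 112 CPM in Trf2-/- mice. Each Trf2-/- mouse was below each WT mouse, and the mean fell from 165 ± 8.15 to 123 ± 10.0 CPM (SD, n = 3 each; log2 fold change -0.42, standard error 0.07, edgeR adjusted p = 0.00189). With both mouse 1 libraries left out, a setting added after the data were seen, the log2 fold changes of the 4 genes were -0.89 for Fbn2, -1.20 for Col2a1, -1.05 for Col9a1 and -0.39 for Col16a1, and all 4 passed the edgeR test.

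Promoter windows of RefSeq on GRCm38.p6, from 250 bases before to 50 bases after a start, were given for 43 of the 61 matrix genes, with 47 windows in all. Of the 4 genes above, Col16a1 and Col9a1 have windows, and they are shown because these genes were down-regulated. The capitals in the Col16a1 window at chr4:130047590-130047889, on the plus strand, mark its 2 GC boxes (GGGCGG, read on both strands). The Col9a1 windows at chr1:24177360-24177659 and chr1:24194953-24195252, both on the plus strand, hold no GC box, no TATA box (TATAAA) and no cAMP response element (TGACGTCA), and are printed without capitals.
Col16a1: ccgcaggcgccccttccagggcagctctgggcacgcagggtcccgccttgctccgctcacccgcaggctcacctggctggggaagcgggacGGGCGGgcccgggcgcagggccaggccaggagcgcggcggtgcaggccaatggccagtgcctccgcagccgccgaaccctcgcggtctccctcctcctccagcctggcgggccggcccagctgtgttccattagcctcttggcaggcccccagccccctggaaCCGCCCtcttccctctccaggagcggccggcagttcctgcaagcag
Col9a1 window 1: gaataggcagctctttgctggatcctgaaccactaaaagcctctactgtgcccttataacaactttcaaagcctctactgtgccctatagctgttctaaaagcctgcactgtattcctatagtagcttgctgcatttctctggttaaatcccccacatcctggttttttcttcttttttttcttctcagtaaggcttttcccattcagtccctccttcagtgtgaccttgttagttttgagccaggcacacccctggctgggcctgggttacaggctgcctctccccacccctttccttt
Col9a1 window 2: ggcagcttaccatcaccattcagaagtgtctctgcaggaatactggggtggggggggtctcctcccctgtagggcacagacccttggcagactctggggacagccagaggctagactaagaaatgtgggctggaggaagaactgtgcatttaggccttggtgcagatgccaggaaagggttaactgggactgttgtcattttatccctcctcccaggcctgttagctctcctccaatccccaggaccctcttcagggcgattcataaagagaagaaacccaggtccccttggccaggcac
The Col16a1 window has a GC content of 74.3%, and the Col9a1 windows have 47.3% and 55.7%, beside a median of 52.7% over all windows and of 60.0% over those of matrix genes. A GC box was found in 29 of the 47 matrix gene windows (61.7%) and in 35.7% of all 32851 windows. A TATA box was found in 5 of the 47 (10.6%, against 13.6% of all windows), namely those of Col10a1, Col11a2, Col13a1, Col17a1 and Col3a1. A cAMP response element was found in 1 (2.13%, against 1.79%), that of Col24a1. These are matches of letters, not sites shown to be bound.

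Of 8 tested FACIT genes, 2 (Col9a1 and Col16a1) were lower and 1 was higher. Of the other 6, 5 had a log2 fold change above 0, and 5 did not pass the test. The group had a median log2 fold change of 0.11 (-0.18 with both mouse 1 libraries left out). The higher gene was Col9a2, which encodes a partner chain of Col9a1 in the collagen IX trimer. It had few reads, with 17, 22 and 13 counts in WT and 38, 28 and 20 in Trf2-/- mice. The levels of 0.592, 0.843 and 0.624 CPM in WT lay below the 1.51, 1.20 and 1.26 CPM of the Trf2-/- mice (log2 fold change 0.95, standard error 0.25, edgeR adjusted p = 0.019). DESeq2's Wald test gave an adjusted p of 0.0755, and the call was lost in 3 of the 6 fits that left out 1 mouse, which lacked WT mouse 1, WT mouse 3 or Trf2-/- mouse 1. Col9a3, the other chain of the trimer, was at 3.35, 4.17 and 4.08 CPM in WT and 5.67, 4.42 and 5.88 CPM in Trf2-/- mice (log2 fold change 0.46, standard error 0.16, edgeR adjusted p = 0.0612). It is overlapped on the opposite strand by Tcfl5, which had up to 11342 counts in a mouse. Col20a1, the FACIT gene with the second highest level per kilobase, was at 31.2, 31.3 and 28.3 CPM in WT and 27.6, 27.4 and 22.2 CPM in Trf2-/- mice (log2 fold change -0.23, standard error 0.09, edgeR adjusted p = 0.0917).

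The interstitial collagen genes Col3a1 and Col1a2 had the highest levels per kilobase of all matrix genes. Of 11 fibrillar collagen genes, Col1a1 and Col5a1 were higher, Col2a1 was lower and 8 did not pass the test, with a median log2 fold change of 0.29. Per kilobase, Col3a1, Col1a2 and Col1a1, the chains of collagens III and I, made up 44.0%, 34.2% and 12.8% of the fibrillar level in WT testes. Col3a1 was at 403, 572 and 728 CPM in WT and 1185, 661 and 574 CPM in Trf2-/- mice. The genotypes overlapped, with WT mouse 1 the lowest and Trf2-/- mouse 1 the highest of the 6 (log2 fold change 0.51, standard error 0.28, edgeR adjusted p = 0.19). Col1a2 was at 363, 462 and 589.9 CPM in WT and 829, 564 and 531 CPM in Trf2-/- mice, with the same 2 mice at the ends (log2 fold change 0.45, standard error 0.20, edgeR adjusted p = 0.116).

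Col1a1, which supplies the other chain of collagen I, was at 135, 179 and 221 CPM in WT and 330.4, 249.7 and 242 CPM in Trf2-/- mice. The genotypes did not overlap, and the gene passed the test (log2 fold change 0.62, standard error 0.17, edgeR adjusted p = 0.0241). The call was lost without WT mouse 1, WT mouse 2 or Trf2-/- mouse 1, and with DESeq2's Wald test (adjusted p = 0.0506), and with both mouse 1 libraries left out the log2 fold change was 0.30 (edgeR adjusted p = 0.0986). Col5a1, a collagen V chain that sets fibril diameter and was singled out here after its values were seen, was at 51.2, 59.3 and 68.0 CPM in WT and 95.7, 75.6 and 83.6 CPM in Trf2-/- mice. It rose by a log2 fold change of 0.52 (standard error 0.11, edgeR adjusted p = 0.0086) and passed the test whichever single mouse was left out. With both mouse 1 libraries left out it was 0.32 (edgeR adjusted p = 0.0631).

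The collagen VI genes, whose products form beaded filaments around cells, had the same 2 mice at the ends for Col6a1, Col6a2, Col6a5 and Col6a6, though not for Col6a3 and Col6a4. Of 6 genes only Col6a6 passed the test, at 3.31, 4.75 and 5.28 CPM in WT and 7.70, 7.16 and 5.82 CPM in Trf2-/- mice (log2 fold change 0.65, standard error 0.19, edgeR adjusted p = 0.0304). Without Trf2-/- mouse 1 its adjusted p was 0.103 in the same test. Col6a1, the most abundant of them per kilobase, was at 105, 144 and 172 CPM in WT and 202, 156 and 152 CPM in Trf2-/- mice, which overlapped (log2 fold change 0.29, standard error 0.17, edgeR adjusted p = 0.226). Col6a2 was at 44.8, 67.3 and 84.9 CPM in WT and 89.1, 70.0 and 72.6 CPM in Trf2-/- mice (log2 fold change 0.24, standard error 0.20, edgeR adjusted p = 0.375). Col6a3 was at 55.5, 71.8 and 93.0 CPM in WT and 92.2, 84.0 and 77.8 CPM in Trf2-/- mice, with WT mouse 3 the highest of the 6 (log2 fold change 0.21, standard error 0.16, edgeR adjusted p = 0.33). The largest log2 fold change of the group, 1.03, was that of Col6a5, at 7.46, 15.3 and 20.0 CPM in WT and 48.8, 22.1 and 14.0 CPM in Trf2-/- mice. Its genotypes overlapped (standard error 0.45, edgeR adjusted p = 0.113), and with both mouse 1 libraries left out its log2 fold change was 0.06. Col6a4, with the smallest, was at 19.5, 19.1 and 19.3 CPM in WT and 24.5, 19.3 and 21.4 CPM in Trf2-/- mice (log2 fold change 0.17, standard error 0.09, edgeR adjusted p = 0.185).

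Summed per kilobase, the 11 fibrillar collagen genes reached 173, 228 and 287 CPM in WT mice 1 to 3 and 431, 275 and 253 CPM in Trf2-/- mice 1 to 3. Trf2-/- mice 2 and 3 thus lay within the WT range. The median log2 SD within a genotype was 0.23 for fibrillar and 0.29 for collagen VI genes, compared with 0.12 over all tested genes. With both mouse 1 libraries left out, the median log2 fold change was 0.08 for the fibrillar and 0.02 for the collagen VI genes. A drop was built into this setting, since WT mouse 1 had the lowest and Trf2-/- mouse 1 the highest sum of both groups. Summed over their lists, markers of interstitial fibroblasts and of macrophages were highest in Trf2-/- mouse 1 as well. Of 6 fibroblast markers 4 were higher and none lower, where 11.2% of all tested genes were higher and 20.2% lower. Their summed level was 314 to 335 CPM in WT and 429 to 649.6 CPM in Trf2-/- mice. Dcn gave 412 of the 649.6 CPM. Pdgfra was at 185, 175 and 179 CPM in the Trf2-/- mice, and Gli1 was highest in Trf2-/- mouse 3. Of 8 macrophage markers 5 were higher and none lower, with a summed level of 178 to 202 CPM in WT and 203 to 401 CPM in Trf2-/- mice. Among the WT mice, mouse 1 had the lowest fibroblast sum (314 CPM) but the highest macrophage sum (202 CPM). No defining marker of either list was at 0 in a mouse, and the part of these cells in the collagen levels was not tested.

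**Figure D3:**
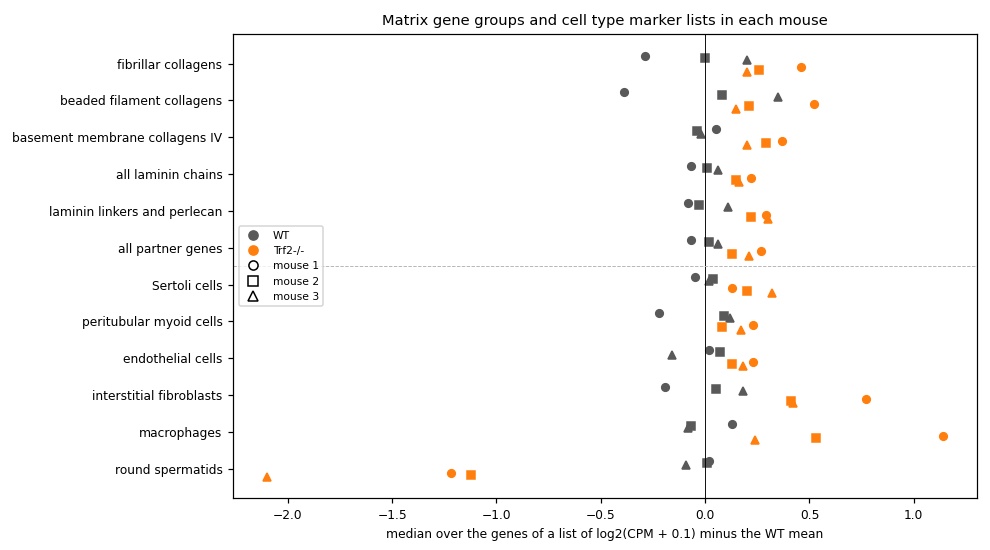
Median over the genes of each list of log2(CPM + 0.1) minus the WT mean, for each mouse (symbol) and genotype (colour), with matrix groups above the dashed line and marker lists of cell types below it. For the fibrillar and collagen VI genes WT mouse 1 is at the left end and Trf2-/- mouse 1 at the right, whereas for collagen IV the 3 mice of each genotype stay together.

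The basement membrane genes varied less between the mice of a genotype than the interstitial collagens did. Of 22 such genes, 15 were higher, 1 was lower and 6 did not pass the test, with a median log2 fold change of 0.25. With both mouse 1 libraries left out the median was 0.21, the median over all genes was 0.03, and 4 of the 21 higher matrix genes passed the test, where 2.32% of all genes were higher. These 4, Col4a1, Col4a2, Col4a6 and Col18a1, all belong to the basement membrane, as did 15 of the 21 before. The setting was added after the data were seen, so it does not show that stability is particular to these genes. The median log2 SD within a genotype was 0.09 for collagen IV and 0.10 for the laminins.

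Collagen IV is encoded by 6 genes arranged in 3 head-to-head pairs, and 5 of the 6 were higher in Trf2-/- testes. Col4a1 and Col4a2, the chains of the ubiquitous trimer, are at chr8 and overlap by 22 bases at their starts on NCBIM37. Col4a1 was at 369.7, 339 and 342 CPM in WT and 467, 430.1 and 396 CPM in Trf2-/- mice. Col4a2 was at 179.9, 167 and 174 CPM in WT and 223, 207 and 203 CPM in Trf2-/- mice. The genotypes overlapped for neither gene. Col4a1 rose by a log2 fold change of 0.30 (standard error 0.07, edgeR adjusted p = 0.00913) and Col4a2 by 0.28 (standard error 0.05, edgeR adjusted p = 0.0039). Without Trf2-/- mouse 1, Col4a1 was at 0.22 with an edgeR adjusted p of 0.0525, while Col4a2 passed the test in every setting.

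The RefSeq windows of this pair are shown because the genes share their start region. On GRCm38.p6 the Col4a2 window lies at chr8:11312555-11312854 on the plus strand and the Col4a1 window at chr8:11312777-11313076 on the minus strand, with starts 21 bases apart. Capitals mark the 78 bases that both windows hold, each read on its own strand.
Col4a2: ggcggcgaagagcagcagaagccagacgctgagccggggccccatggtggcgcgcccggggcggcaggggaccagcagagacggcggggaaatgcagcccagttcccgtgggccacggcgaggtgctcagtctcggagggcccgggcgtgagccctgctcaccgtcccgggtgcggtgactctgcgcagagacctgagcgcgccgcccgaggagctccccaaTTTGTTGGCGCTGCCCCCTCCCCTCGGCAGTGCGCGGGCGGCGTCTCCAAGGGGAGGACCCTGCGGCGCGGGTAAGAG
Col4a1: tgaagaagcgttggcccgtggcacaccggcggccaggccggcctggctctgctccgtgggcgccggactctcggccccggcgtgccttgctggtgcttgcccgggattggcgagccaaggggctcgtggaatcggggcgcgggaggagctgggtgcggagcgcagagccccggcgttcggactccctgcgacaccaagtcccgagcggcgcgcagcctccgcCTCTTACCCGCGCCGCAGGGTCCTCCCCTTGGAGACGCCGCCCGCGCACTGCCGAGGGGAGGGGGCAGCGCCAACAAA
Both windows hold a GC box and are rich in GC (73.7% and 74.0%), and neither holds a TATA box.

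The other pairs encode chains of the networks of mature basement membranes. Col4a3 and Col4a4 start 71 bases apart. Col4a4 was at 129, 125 and 144 CPM in WT and 146, 161 and 159.6 CPM in Trf2-/- mice, and rose by a log2 fold change of 0.23 (standard error 0.06, edgeR adjusted p = 0.0239). Col4a3 was at 128, 130 and 143 CPM in WT and 122, 147 and 145 CPM in Trf2-/- mice, which overlapped (log2 fold change 0.04, standard error 0.08, edgeR adjusted p = 0.695). The difference between the 2 genes was not tested. Col4a5 and Col4a6 start 1308 bases apart on the X chromosome. Col4a6, the least abundant collagen IV gene per kilobase, had the largest increase of the group, from 13.5, 12.9 and 12.5 CPM in WT to 18.1, 17.6 and 16.5 CPM in Trf2-/- mice (log2 fold change 0.43, standard error 0.08, edgeR adjusted p = 0.00494). Col4a5 was at 57.4, 56.5 and 53.5 CPM in WT and 72.6, 69.6 and 58.1 CPM in Trf2-/- mice (log2 fold change 0.26, standard error 0.08, edgeR adjusted p = 0.0394). The call of Col4a5 held in 1 of the 6 fits that left out a mouse.

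Summed per kilobase, the collagen IV genes reached 123, 116 and 121 CPM in WT and 148, 145 and 137 CPM in Trf2-/- mice, which did not overlap. Within this sum Col4a1 held 42.7% ± 1.29 in WT and 44.0% ± 1.95 in Trf2-/- testes (SD, n = 3 each), so its share differed by less than the spread between mice. Relative to the fibrillar sum, collagen IV was at log2 ratios of -0.49, -0.97 and -1.25 in WT and -1.54, -0.92 and -0.88 in Trf2-/- mice. The genotypes overlapped, with a difference of -0.21 (2-sided exact permutation test, p = 0.6).

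**Figure D4:**
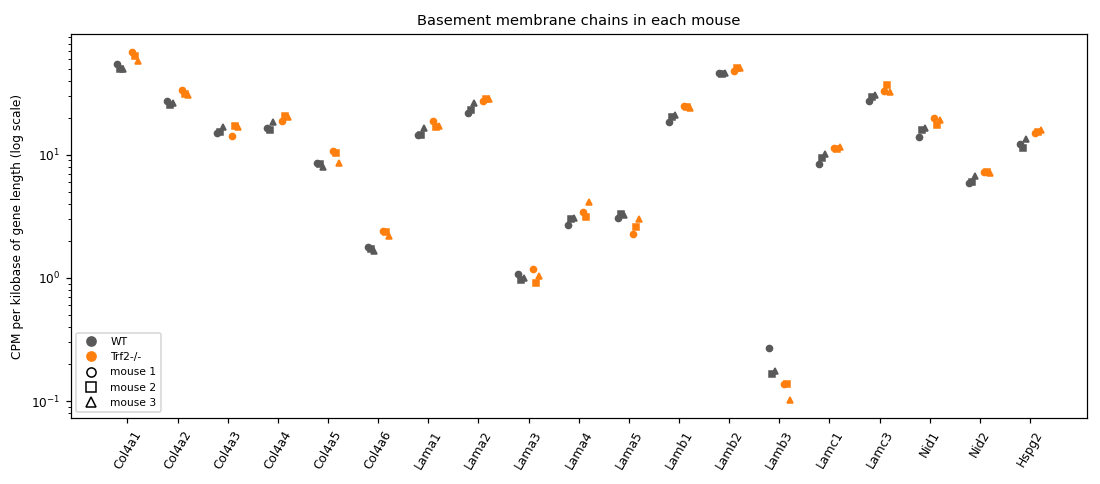
Level per kilobase of gene length (CPM per kb, log axis) of collagen IV, laminin, nidogen and perlecan genes in each mouse, with WT in grey and Trf2-/- in orange. Col4a1 and Lamb2 have the highest levels, Lamb3 the lowest, and the shift between genotypes is small beside the differences between genes.

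Collagens XV and XVIII, which link basement membranes to the tissue around them, were both higher. Col18a1 was at 201, 220.2 and 228 CPM in WT and 268, 263 and 280.2 CPM in Trf2-/- mice, which did not overlap (log2 fold change 0.32, standard error 0.06, edgeR adjusted p = 0.00295). It passed the test in every setting, and Slc19a1, which overlaps it on the opposite strand, had at most 173 counts in a mouse. Col15a1 was at 16.2, 18.6 and 22.5 CPM in WT and 30.6, 29.0 and 20.3 CPM in Trf2-/- mice (log2 fold change 0.50, standard error 0.16, edgeR adjusted p = 0.0471). The genotypes overlapped through Trf2-/- mouse 3, and the call of Col15a1 held in 2 of the 6 fits that left out a mouse.

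Among 11 laminin chains, 5 were higher, 1 was lower and 5 did not pass the test. Lama2 and Lama1 were the main alpha chains, with 51.4% and 33.0% of the alpha chain level per kilobase in WT testes. Lama2 was at 211, 226 and 255 CPM in WT and 268, 276 and 275 CPM in Trf2-/- mice, which did not overlap (log2 fold change 0.25, standard error 0.07, edgeR adjusted p = 0.0219). Lama1 was at 138, 138 and 158 CPM in WT and 179, 159.6 and 162 CPM in Trf2-/- mice, with barely a gap between the genotypes (log2 fold change 0.21, standard error 0.07, edgeR adjusted p = 0.0469). The calls of both genes held in 2 of the 6 fits that left out a mouse. Lama5, an alpha chain of vascular and epithelial laminins, was the single basement membrane gene that was lower. Its levels were 35.0, 37.7 and 37.0 CPM in WT and 26.1, 29.8 and 34.4 CPM in Trf2-/- mice, with no overlap (log2 fold change -0.29, standard error 0.09, edgeR adjusted p = 0.0471). With library size in place of TMM its adjusted p was 0.144 in the same test, and its call held in 1 of the 6 fits that left out a mouse, that without Trf2-/- mouse 3. Lama4, of endothelial laminin, was at 16.4, 18.3 and 18.6 CPM in WT and 20.6, 19.0 and 24.8 CPM in Trf2-/- mice (log2 fold change 0.27, standard error 0.11, edgeR adjusted p = 0.0888).

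Of the beta chains, Lamb2 had the higher level per kilobase, with 69.5% ± 1.55 of the beta chain sum in WT and 66.8% ± 1.09 in Trf2-/- testes (SD, n = 3 each), and Lamb1 held nearly all of the rest. Lamb1 was at 108, 118 and 124 CPM in WT and 145, 144 and 140.5 CPM in Trf2-/- mice (log2 fold change 0.30, standard error 0.06, edgeR adjusted p = 0.00448). It passed the test whichever single mouse was left out. Lamb2 was at 261, 254 and 259 CPM in WT and 268, 286 and 284 CPM in Trf2-/- mice, which did not overlap but did not pass the test (log2 fold change 0.12, standard error 0.04, edgeR adjusted p = 0.0722). The main gamma chain per kilobase was Lamc3, with 74.6% of the gamma chain sum in WT, at 168, 178 and 186 CPM in WT and 201, 226 and 197 CPM in Trf2-/- mice (log2 fold change 0.23, standard error 0.06, edgeR adjusted p = 0.0218). Lamc1 was at 64.4, 72.4 and 77.1 CPM in WT and 85.8, 84.4 and 88.2 CPM in Trf2-/- mice (log2 fold change 0.27, standard error 0.07, edgeR adjusted p = 0.0159). Both gamma chains were higher in every Trf2-/- mouse. Lamb3, a beta chain of epithelial laminin, was scarce, at 0.728 to 1.18 CPM in WT and 0.442 to 0.60 CPM in Trf2-/- mice (log2 fold change -0.70, standard error 0.30, edgeR adjusted p = 0.112).

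The 3 genes that connect the laminin and collagen IV networks were all higher. Hspg2, which encodes the heparan sulphate proteoglycan perlecan, was at 175, 163 and 192 CPM in WT and 216, 219 and 228 CPM in Trf2-/- mice, with no overlap (log2 fold change 0.32, standard error 0.06, edgeR adjusted p = 0.00468). Nid1 was at 84.3, 95.5 and 100.1 CPM in WT and 121, 106 and 115 CPM in Trf2-/- mice, also with no overlap (log2 fold change 0.29, standard error 0.07, edgeR adjusted p = 0.0179). Nid2 was at 28.6, 29.6 and 32.6 CPM in WT and 35.2, 35.2 and 34.6 CPM in Trf2-/- mice (log2 fold change 0.21, standard error 0.07, edgeR adjusted p = 0.0366). Nid2 is overlapped on the opposite strand by 2700060E02Rik, which had up to 2856 counts in a mouse. Of these 3 calls, that of Hspg2 alone held whichever single mouse was left out, and with both mouse 1 libraries left out its adjusted p was 0.0524 in the same test.

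Markers of the cells that make the basement membrane were compared in the same mice. Among all tested genes 11.2% were higher and 20.2% lower, with a median log2 fold change of 0.04. Of 9 Sertoli cell markers 4 were higher and none lower. The median log2 fold change of the list was 0.19 and its summed level was 1638 to 1766 CPM in WT and 1879 to 2092 CPM in Trf2-/- mice. Clu alone gave 1044 to 1165 CPM of this sum in WT and 1226 to 1373 CPM in Trf2-/- mice. Of 7 peritubular myoid markers 1 was higher and none lower, with a median of 0.16 and a summed level of 421 to 520.1 CPM in WT and 508 to 581 CPM in Trf2-/- mice. Of 9 tested round spermatid markers 8 were lower and none higher, with a median of -1.57 and a summed level of 346 to 367 CPM in WT and 138 to 219.9 CPM in Trf2-/- mice. Spata16 alone gave 270.2 to 292 CPM of this sum in WT and 106 to 173 CPM in Trf2-/- mice. Of 7 endothelial markers 1 was higher and none lower, with a median of 0.15. A positive median was not limited to somatic cells. Of 6 spermatogonia markers 1 was higher and none lower, with a median of 0.23. Of 7 pachytene spermatocyte markers 3 were higher and 4 lower, with a median of -0.16. No Sertoli, peritubular or endothelial marker was at 0 in a mouse. The part of these cells in the collagen, laminin and fibrillin levels was not tested.

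The anchoring, network and membrane-spanning collagens, which hold epithelia to their matrix or sit in cell membranes, gave no call in the edgeR test or by DESeq2's Wald test, and only Col23a1 had an unadjusted p below 0.05. The 4 tested anchoring and network genes had a median log2 fold change of 0.12 (-0.06 with both mouse 1 libraries left out) and the 4 membrane-spanning genes of 0.18. Col7a1, the anchoring fibril collagen, was at 7.53 to 9.26 CPM in WT and 8.47 to 9.13 CPM in Trf2-/- mice (log2 fold change 0.04, standard error 0.11, edgeR adjusted p = 0.83). Col8a2, a network collagen, was at 7.77 to 11.1 CPM in WT and 8.53 to 12.2 CPM in Trf2-/- mice (log2 fold change 0.08, standard error 0.17, edgeR adjusted p = 0.747). The largest fold change of these groups was in Col23a1, a transmembrane collagen, at 3.21, 3.18 and 3.45 CPM in WT and 3.69, 4.25 and 4.74 CPM in Trf2-/- mice. Its genotypes did not overlap, and it did not pass the test (log2 fold change 0.36, standard error 0.15, edgeR adjusted p = 0.101). Col17a1, the hemidesmosomal collagen, was at 7.81, 7.70 and 8.64 CPM in WT and 7.10, 7.08 and 6.95 CPM in Trf2-/- mice (log2 fold change -0.19, standard error 0.11, edgeR adjusted p = 0.204). Col28a1 was at 1.36 to 2.18 CPM in WT and 1.39 to 2.66 CPM in Trf2-/- mice, and Col13a1 at 2.13 to 3.49 CPM in WT and 2.94 to 3.92 CPM in Trf2-/- mice, and both overlapped.

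Genes that process, bind or degrade these proteins were counted from a list of 76, of which 75 were tested. None was lower in the edgeR test (0 also at an unadjusted p below 0.05 and 0 by DESeq2's Wald test) and 18 were higher, where 20.2% of all tested genes were lower and 11.2% higher, with a median log2 fold change of 0.24. By role, 7 of 24 collagen-processing enzymes, 3 of 18 microfibril and elastic fibre partners, 5 of 19 matrix receptors, 1 of 6 small leucine-rich proteoglycans and 2 of 8 proteases and inhibitors were higher. Dcn, the collagen-binding proteoglycan decorin, was at 143, 168 and 172 CPM in WT and 412, 217 and 216 CPM in Trf2-/- mice (log2 fold change 0.81, standard error 0.23, edgeR adjusted p = 0.0247). Trf2-/- mouse 1 stood well above the others, and without it the log2 fold change of Dcn was 0.42 (edgeR adjusted p = 0.0124). The call of Dcn was lost in 3 of the 6 fits that left out a mouse, with edgeR adjusted p of 0.0976, 0.0691 and 0.0592 without WT mouse 1, 2 or 3, and by DESeq2's Wald test (adjusted p = 0.0666). Dcn is also counted among the fibroblast markers. Efemp1, a fibulin of elastic and basement membrane matrix, was at 6.13, 9.19 and 9.84 CPM in WT and 18.2, 12.2 and 10.3 CPM in Trf2-/- mice (log2 fold change 0.71, standard error 0.23, edgeR adjusted p = 0.0459). Its call held in 1 of the 6 fits that left out a mouse. Of the receptors, the laminin-binding integrin chain Itga6, named after its values were seen, was at 57.5, 53.6 and 56.4 CPM in WT and 75.9, 70.0 and 71.9 CPM in Trf2-/- mice. It rose by a log2 fold change of 0.38 (standard error 0.06, edgeR adjusted p = 0.00143) and passed the test in every setting. The count of partner genes that were higher was 34 with library size in place of TMM, where 25.2% of all genes were higher. It fell to 6 or 8 with WT mouse 1 or 2 left out (4.57% and 4.54% of all genes), to 11 with Trf2-/- mouse 1 left out (6.86%) and to 5 with both mouse 1 libraries left out (2.32%).

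The number of higher matrix genes likewise rested on single mice, at 8 with WT mouse 1 left out, 8 with WT mouse 2 left out and 9 with Trf2-/- mouse 1 left out, where 4.57%, 4.54% and 6.86% of all genes were higher. Of the 21 genes, 6 (Col5a1, Col4a2, Col4a6, Col18a1, Lamb1 and Hspg2) passed whichever single mouse was left out, as did 4 of the 5 lower genes.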

How the data were processed

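Total RNA of testes of 3 WT and 3 Trf2-/- mice was sequenced as stranded single-end reads of 50 bases. The submitters' processing notes list TopHat2 2.0.10, Bowtie2 2.1.0, HTSeq 0.5.4p3 and DESeq2 1.0.19, and the build mm9 (NCBIM37). The authors deposited whole-number read counts per gene, which were used unchanged. The strand setting of the counting and the annotation release are not given in the sources used here. How reads were counted where genes overlap on opposite strands is therefore not known. The 12 columns of normalised values were not used.

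The genotypes were compared on 16924 genes kept by filterByExpr with edgeR 4.0.16 (R 4.3.3; TMM, glmQLFit, glmQLFTest, Benjamini-Hochberg). Standard errors came from the fold change and the F statistic, and SDs of log2 values used a pseudocount of 0.1 CPM. Alternatives were DESeq2 size factors, library size, the Wald test of DESeq2 1.42.0, other filters, a replicate block, an adjusted p of 0.01, each mouse left out and, added after seeing the data, both mouse 1 libraries left out. The procedure was tested on simulated counts, with 200 genes changed by log2 fold changes of -2, -1, 1 or 2. Of the genes changed by -1 and 1, 80.4% and 88% passed, and of the unchanged genes 0.0665%. Changes near 0.25, the median of the matrix genes, were not simulated, so their recovery is not known. No libraries of a genotype differed by less than sampling noise, and the replicates, taken here as mice, are labelled only by number, so p-values measure the spread between these samples.

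The members, gene lists and tests were chosen with earlier results of these data known. Genes named were fibrillins, elastin, fibronectin, members past an adjusted p of 0.05 and 1.5-fold, in each role group the 2 with the highest WT level per kilobase and those with the lowest and highest fold change, the collagen IV pairs, and partner genes past both thresholds. Col9a3, Col12a1, Col14a1, Col6a3, Col5a1, Col5a2 and Itga6 were added after their values were seen, and 1 gene is not reported here.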

Additional observations from a re-analysis of the deposited data

How the results depend on the processing

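The calls of Fbn2, Col2a1, Col9a1 and Col16a1 held in each setting, and the count of lower matrix genes was 4 or 5 throughout. The count of higher matrix genes, 21, was 7 at an adjusted p of 0.01, 4 without both mouse 1 libraries and 8 to 24 when single mice were left out. The count past a 2-fold decrease, 2, was 1 with library size in place of TMM and 2 to 3 when single mice were left out. The count past a 2-fold increase, 0 in the edgeR test, was 1 with library size, 1 with no filter beyond 1 count and 0 to 1 when single mice were left out. The count of higher partner genes, 18, was 34 with library size, 5 at an adjusted p of 0.01, 5 without both mouse 1 libraries and 6 to 23 when single mice were left out. With the replicate number as a block, 16 matrix and 12 partner genes were higher and 5 matrix genes lower. In that setting 8.78% of all genes were higher and 18.3% lower. The deviations of mice with the same number had correlations of -0.097, -0.031 and -0.102. With 3 mice per genotype these cannot show whether such mice were littermates or were handled together, and the numbers were not used as pairs elsewhere.

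Without both mouse 1 libraries the log2 fold change turned negative for 12 of the 59 matrix genes, none of which had passed the test. Among them were -0.22 for Col12a1, -0.14 for Col14a1, -0.02 for Col6a3, -0.07 for Col3a1, -0.03 for Col6a1, -0.09 for Col6a2, -0.03 for Col7a1, -0.21 for Col8a2 and -0.09 for Col28a1. Of the genes named by the rule, 4 changed sign with a single mouse left out, and their ranges were -0.03 to 0.18 for Eln, -0.02 to 0.11 for Col4a3, -0.05 to 0.10 for Col7a1 and -0.07 to 0.20 for Col8a2, with the lowest values without Trf2-/- mouse 2 for Eln and Col4a3 and without WT mouse 1 for Col7a1 and Col8a2. None of these 4 genes had passed the edgeR test. Where WT mouse 1 was the lowest and Trf2-/- mouse 1 the highest, as for Col3a1, leaving out both lowers the fold change by construction. Fewer mice also lower the number of calls among all genes, and the cause of each lost call was not tested. The log2 ratio of Fbn2 to Fbn1 differed by -1.53 to -1.28 when single mice were left out. Depth limits the statements on Col9a2, Lamb3, Col19a1 and Col10a1.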

Other observations

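Some matrix genes lie next to each other on NCBIM37 with no other protein-coding gene between them. Col3a1 and Col5a2, which encode chains of collagens III and V, lie tail to tail 24614 bases apart and had log2 fold changes of 0.51 and 0.44, neither past the edgeR test (adjusted p = 0.19 and 0.102). Col9a1, which was lower, lies tail to tail with Col19a1, 9151 bases away, which had too few reads to be tested. Another annotated gene overlaps 28 of the 61 matrix genes, 24 of them on the other strand.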
